A study of Mus musculus with 3 samples.

Results

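General capillary endothelium is a cell type of the alveolar capillaries of the mouse lung, and was taken here as the barcodes (droplets, each holding a cell or a nucleus) that carried its genes. A barcode counted as a member when it held at least 1 unique molecular identifier (UMI, 1 counted transcript) in at least 5 of the 10 genes Ptprb, Plvap, Gpihbp1, Cd93, Sema3c, Hmcn1, Adgrl3, Aplnr, Kit and Bmp6, and in at most 1 of the 7 genes Ednrb, Apln, Fibin, Tbx2, Vwf, Slc6a2 and Gja5, which mark other endothelium. The rule found 5489 members among 28589 barcodes: 2456 of 11934 cells, 1752 of 6849 barcodes of nuclei 1 and 1281 of 9806 barcodes of nuclei 2. As background, the alveolar capillary bed is made of a pair of endothelial types. Aerocytes (marked by Ednrb, Apln and Car4) are large cells that face the air space and serve gas exchange. General capillary cells are smaller, carry the apelin receptor, the receptor kinase Kit and the lipase anchor Gpihbp1, regulate vascular tone and lipid uptake, and act as the progenitors of the capillary bed.

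The series set 2 ways of preparing lung for droplet RNA sequencing side by side, in wild type C57Bl/6J mice, with 1 library of cells and 2 libraries of nuclei. For the cells, fresh lung was treated with collagenase and DNAse, broken up mechanically and passed over an Optiprep gradient. Nuclei came from snap-frozen lung of adult mice, lysed in Nuclei EZ buffer and filtered, and no age was given for the cells. Whole cells against nuclei and fresh against frozen tissue therefore cannot be told apart. No label ties a library to an animal, so p-values measure only the spread between these libraries, which may in part be technical. In CPM (counts per 1000000 summed UMIs of the members), Xist, the RNA that coats the inactive X chromosome, stood at 266 CPM in the cells and 717 and 2.73 CPM in the nuclei, and the Y-linked gene Uty at 1.90 CPM in the cells and 0.583 and 254 CPM in the nuclei. The nucleus libraries thus did not come from 1 and the same animal, nor did the cells come from the animal of nuclei 2. The spread between the nucleus libraries therefore includes a difference between animals.

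Library totals were 27148272 to 35962788 UMIs, of which the members held 7378994 in the cells, 6862013 in nuclei 1 and 2928237 in nuclei 2. Values given as 3 numbers run in the order cells, nuclei 1, nuclei 2, and CPM always refer to the summed UMIs of a class in a library. Members had median depths of 2829.5, 3900.5 and 2069 UMIs and 1761.5, 1890 and 1302 genes, so nuclei 2 was the shallowest. Their median share of mitochondrial UMIs was 2.09, 0.326 and 0.289%, and that of ribosomal protein genes 5.27, 0.881 and 1.00%. The largest gene count of a barcode was 2499 in the cells and in nuclei 1 and 2999 in nuclei 2, as in tables filtered before deposit. Libraries shared 66 barcode sequences between pairs, 3 of them among members.

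Members made up 20.6% of the cells (exact binomial 95% interval 19.9 to 21.3), 25.6% of nuclei 1 (24.6 to 26.6) and 13.1% of nuclei 2 (12.4 to 13.7). These intervals cover counting error only. The nucleus libraries lay on both sides of the cells, so the share did not separate the preparations. Its order held when every barcode was thinned to 1500 UMIs, at 18.0, 23.2 and 11.9%, with 0, 8 and 1726 shallower barcodes left out. Of the barcodes with at least 3 of the 6 pan-endothelial genes Pecam1, Cdh5, Cldn5, Egfl7, Tie1 and Calcrl, members made up 38.6, 54.5 and 44.8%, and 92.0, 92.9 and 79.7% of members passed that check.

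The members were selected on the UMIs of the rule genes, so the levels of these genes describe them and are not tested against other classes. Sema3c, a secreted semaphorin, stood at 1980.3, 2406 and 1487 CPM in the members and at 462, 244 and 165 CPM in aerocytes. Kit stood at 249.9, 966 and 740.2 CPM against 21.0, 15.8 and 11.99 CPM in aerocytes, and Hmcn1, a large matrix protein, at 1002, 1627 and 2364 against 74.1, 27.5 and 207 CPM. All 3 were higher in the members in every library. Gpihbp1, which holds lipoprotein lipase at the capillary wall, stood at 272, 44.5 and 65.2 CPM, with both nucleus libraries below the cells. Plvap, the protein of fenestral diaphragms, was at 220.0, 139 and 148 CPM, Bmp6, a BMP ligand, at 1224, 3029 and 3334 CPM, and Ptprb, the endothelial receptor phosphatase, at 1729, 2019.9 and 1893 CPM. Adgrl3, an adhesion receptor, stood at 2608, 14139.5 and 2993 CPM, so that nuclei 1 stood far above the other libraries. Aplnr, the apelin receptor, was lowest in nuclei 1, at 34.8, 3.35 and 27.0 CPM. The summed level of the 6 markers Gpihbp1, Plvap, Sema3c, Hmcn1, Adgrl3 and Kit was 6333, 19322 and 7798 CPM in members. It was 1217, 2695 and 1451 CPM in aerocytes and 5001, 10895 and 3201 CPM in large-vessel endothelium. Large-vessel endothelium thus lay between members and aerocytes in each library. Ptprb was higher there than in members in each library, at 1939, 2598 and 2148 CPM. Plvap and Cd93 were higher there in the cells but not in the nuclei. The other rule genes were lower there than in members in each library. The 7 aerocyte markers summed to 191, 68.4 and 102 CPM in members and to 3339.5, 1778 and 1697 CPM in aerocytes. Aerocytes were chosen for at least 3 of these 7 markers and fewer than 5 rule genes. The contrasts of members and aerocytes in rule genes and aerocyte markers thus follow from how both classes were chosen.

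Endothelial genes outside the rule went with the label. The 14 pan-endothelial markers summed to 9082, 15450 and 9643 CPM in members, 11727, 10984 and 8661 CPM in aerocytes and 1344, 1348 and 1335 CPM in alveolar macrophage barcodes, and none of them was at 0 in the members. Pecam1, the platelet endothelial adhesion molecule, stood at 818, 1040.0 and 712 CPM in members, and Calcrl, the adrenomedullin receptor, at 2641, 8852 and 4087 CPM. Both were far above their levels in macrophages, at 154, 52.5 and 61.9 and 245, 393 and 355 CPM. Arterial markers (8 genes) summed to 744, 907 and 677 CPM, venous markers (7 genes) to 486, 399.9 and 440.0 CPM and lymphatic markers (7 genes) to 249, 174 and 147 CPM in members. In large-vessel endothelium the arterial sum was 617, 1172 and 1449.6 CPM, the venous sum 3231, 3265 and 2550.4 CPM and the lymphatic sum 402, 239.8 and 261 CPM. The members lay below that class in each library for the venous and lymphatic sums, and for the arterial sum in the nuclei but not in the cells. Vwf, Slc6a2 and Gja5, which the rules of these classes used, are among the venous and arterial markers.

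**Figure D1:**
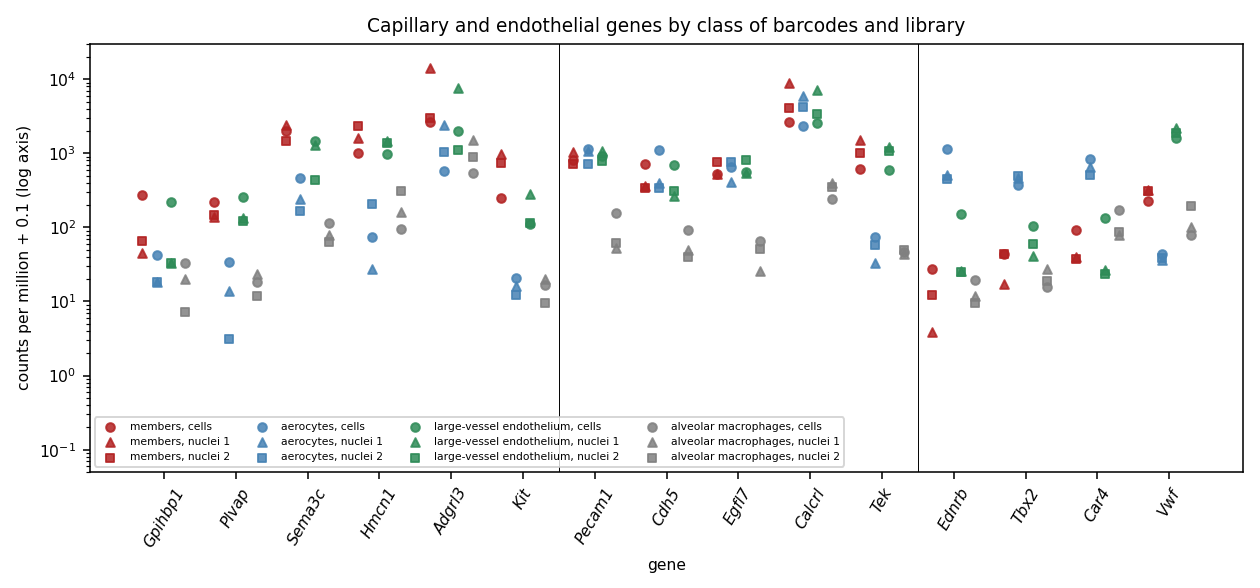
Levels of 15 capillary and endothelial genes (x axis) in CPM plus 0.1 (y axis, log scale) in members, aerocytes, large-vessel endothelium and alveolar macrophages. Each point is 1 library, with circles for cells, triangles for nuclei 1 and squares for nuclei 2. Members stand above aerocytes for Sema3c, Hmcn1, Adgrl3, Kit and Tek and below them for Ednrb, Tbx2 and Car4. All of these but Tek were used to choose the classes.

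Transcripts of other cell types were present in members of every library. Epithelial markers (11 genes) summed to 6067, 19628 and 23178 CPM in members and 4765, 21262 and 22314 CPM in all other barcodes, led in the nuclei by Scgb1a1, the club cell secretoglobin, at 1378, 16279.7 and 18460.2 CPM in members. Sftpc, a surfactant protein gene, led in the cells, at 3868, 2535 and 3448 CPM. Immune markers (12 genes) summed to 2485, 515 and 799 CPM against 8460.0, 883 and 867 CPM outside, mesenchymal markers to 855, 226 and 348 against 754, 521 and 489 CPM, and red cell markers to 1704, 371 and 119 against 1000.3, 337 and 96.9 CPM. None of these genes was at 0 in the members, and 99.3, 99.9 and 100% of members held at least 2 of 33 other-lineage genes. Macrophage barcodes, which should lack the rule genes, held some of them too. After thinning to 1500 UMIs, Adgrl3 was seen in 49.1, 72.7 and 56.3% of macrophage barcodes and 87.6, 97.3 and 88.6% of members. Kit, by contrast, was seen in 2.19, 3.33 and 1.19% of macrophage barcodes and 31.2, 65.9 and 58.5% of members, and Gpihbp1 in 5.48, 1.33 and 0.397% and 33.0, 6.74 and 9.10%.

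Barcodes near the limit of 5 rule genes carried less endothelial RNA than the members as a whole. Just inside, with 5 rule genes, were 490, 271 and 377 barcodes, whose Tek stood at 265, 967 and 763 CPM. Just outside, with 4 rule genes, were 711, 376 and 523 barcodes, with Tek at 116, 197 and 273 CPM. At the other limit, 764, 379 and 145 barcodes were left out for 2 excluded genes, and 1248, 881 and 493 members held 1. Tek stood at 644, 1346 and 1033 CPM in the barcodes left out there, near the 605, 1495 and 1007 CPM of all members.

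Beyond the rule, several endothelial genes stood higher in the members than in the sum of all other barcodes, a description with no test, though not all stood higher than in large-vessel endothelium. Tek, the angiopoietin receptor, stood at 605, 1495 and 1007 CPM in members and 130.4, 189 and 104 CPM outside. Sox17, a transcription factor of endothelium, stood at 125, 55.1 and 56.4 against 27.4, 12.03 and 8.47 CPM, and Sema3g, a semaphorin, at 145, 84.1 and 82.0 against 28.3, 17.8 and 14.4 CPM. Members exceeded the other barcodes in all libraries for each. Ldb2, a cofactor of LIM-domain transcription factors, stood at 1511, 3343 and 3256 against 294, 468 and 377 CPM, and the phosphodiesterase gene Pde3a at 1198, 3536 and 2007 against 268, 729 and 273 CPM. In large-vessel endothelium Tek stood at 604, 1217 and 1069 CPM, Sox17 at 90.9, 43.2 and 23.2 CPM and Sema3g at 77.8, 54.2 and 67.0 CPM. Ldb2 stood there at 1171, 2406 and 3354 CPM and Pde3a at 1537, 4480.2 and 2708 CPM. Sox17 and Sema3g were higher in the members than in that class in each library, Pde3a was lower in each, and Tek and Ldb2 were lower in nuclei 2. The other leading genes by the smallest ratio over the 3 libraries were Grik2, Ccdc85a, Sox11, Rgs9 and Cyyr1, with smallest ratios between 4.36 and 6.02.

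Against aerocytes the leading gene was Tek, at 73.4, 32.7 and 57.0 CPM in the aerocytes. Vegfc, a growth factor best known for lymphatic vessels, stood at 101, 282 and 201 CPM in members and 15.4, 10.6 and 14.99 CPM in aerocytes. Plcb1, a phospholipase C, stood at 1739, 988 and 3889 against 235, 37.0 and 204 CPM, and Gna14, a G protein alpha subunit of the class that activates such enzymes, at 142, 323 and 349.8 against 19.6, 6.34 and 24.0 CPM. Members were the higher class in each library. Iigp1, an interferon-induced GTPase, stood at 846, 119.7 and 106 against 108, 4.22 and 14.99 CPM, and Tox3, Mcf2l, Nhsl1, Atp8b1 and Pcsk5 completed the 10 leading genes. In the other direction, Tmeff2, a membrane protein with follistatin-like domains, stood at 935, 1951 and 1496 CPM in aerocytes and 30.4, 22.3 and 39.3 CPM in members. Rgs6, a regulator of G protein signalling, stood at 1337, 4066 and 2839 against 85.7, 41.2 and 76.2 CPM, and Ncam1, an adhesion molecule, at 60.1, 125 and 95.9 against 4.61, 5.10 and 4.10 CPM. Aerocytes were higher in all 3 libraries for these and for Slc5a12, Lmntd1, Dpysl5, Edil3, Ccdc68, Kif26b and Tln2.

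The rule lets a member carry 1 excluded gene, and Vwf, the clotting factor stored in endothelium, was seen in 29.9, 37.7 and 26.1% of members. It was also seen in 21.1, 30.7 and 36.3% of alveolar macrophage barcodes, which should lack it, at median depths of 3296, 4128.5 and 3108 UMIs. After thinning to 1500 UMIs the shares were 20.2, 24.8 and 22.8% of members and 10.8, 15.3 and 20.6% of macrophage barcodes, so the margin over that background was small in nuclei 2. Members with a Vwf UMI also had more Vegfc, at 184, 469 and 448 CPM against 64.5, 167 and 107 CPM in members without. Samd5 stood at 137, 183 and 263 against 52.5, 93.9 and 75.1 CPM, and Entpd1, the enzyme CD39 that breaks down extracellular ATP, at 274, 927 and 560.1 against 200.1, 686 and 349.6 CPM. The split ran the same way in every library for these 3 genes, and for Chn2, Cemip2 and Myof. Higher in members without Vwf was C7, a complement component, at 67.2, 86.4 and 227 against 23.8, 26.7 and 56.8 CPM. Itga8, an integrin alpha subunit, stood at 109, 58.1 and 131 against 57.4, 24.4 and 51.8 CPM, and Cacna1d, Bicc1, Prdm6 and Ptprd ran the same way. These values describe a split by 1 gene chosen after the data were seen.

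Within the members, cells and nuclei were compared on counts summed per library. Of 16230 genes tested, 1263 were higher in the cells (7.78%) and 211 lower (1.30%), or 9.08% in either direction, at an adjusted p under 0.05 (edgeR quasi-likelihood test with Benjamini-Hochberg adjustment). The cell library stands alone in its group, and its spread was taken to equal that of the 2 nucleus libraries. Higher genes made up 85.7% of the calls after TMM scaling and 65.6% after RLE scaling, which called 2414 higher and 1266 lower, while the median log2 fold of all genes was 0.05 and -0.03. Since the rule chose members by its genes in either preparation, their folds are given with no test. The log2 fold was 2.31 ± 0.35 for Gpihbp1 and 1.86 ± 0.40 for Cd93, a lectin-like receptor, which were higher in the cells than in both nucleus libraries. It was -1.82 ± 0.54 for Kit, -1.40 ± 0.62 for Bmp6 and -1.001 ± 0.56 for Hmcn1, which were lower in the cells than in both. Sema3c, at -0.03 ± 0.63, lay between the nucleus libraries.

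**Figure D2:**
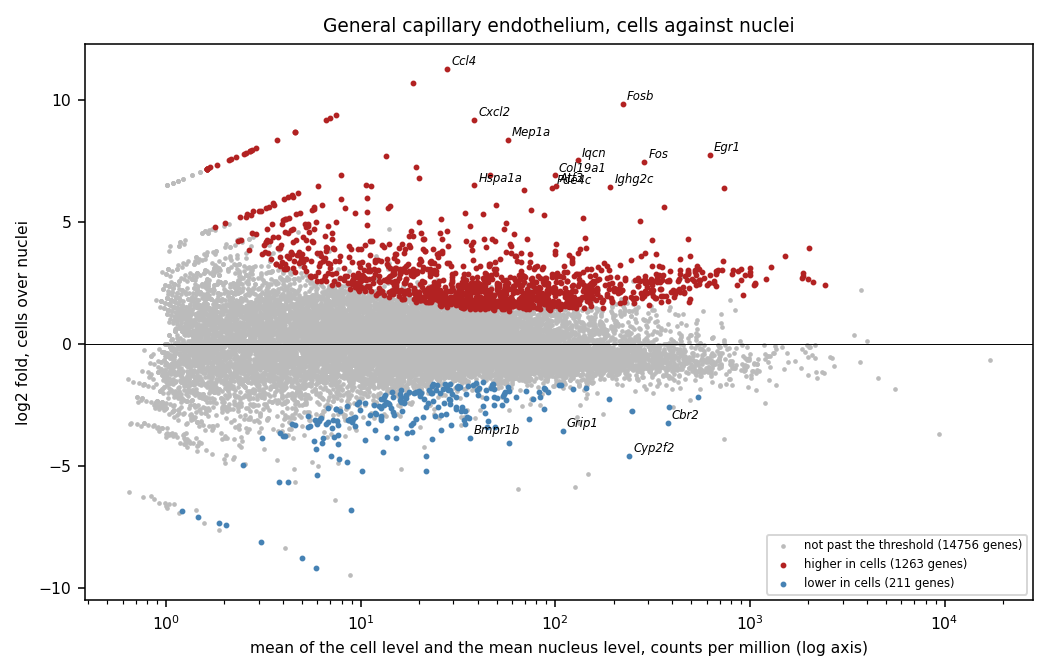
Log2 fold of cells over nuclei in the members (y axis) against the mean level in CPM (x axis, log scale), 1 point a gene. Coloured points passed the edgeR threshold, 1263 above 0 and 211 below it, and named points are among the leading genes in each direction.

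Immediate early genes, transcribed at once after a stimulus with no need of new protein, were mostly higher in the cells. Of 34 tested, 29 were higher and 0 lower, against 7.78% of all genes higher, and the median log2 fold was 3.46 against 0.05 for all genes. Fos, a subunit of the transcription factor AP-1, stood at 572 CPM in the cells and 2.62 and 3.76 CPM in the nuclei. Its partner Junb stood at 1463 CPM in the cells and 11.8 and 23.6 CPM in the nuclei. In both genes the cells lay far above both nucleus libraries, with log2 folds of 7.49 ± 0.44 (edgeR adjusted p = 0.00468) for Fos and 6.40 ± 0.53 (edgeR adjusted p = 0.0107) for Junb. Egr1, a zinc finger factor induced by growth signals and shear, stood at 1239 CPM in the cells and 2.77 and 9.56 CPM in the nuclei, a log2 fold of 7.76 ± 0.69 (edgeR adjusted p = 0.0107). Without nuclei 1 and without nuclei 2 the value for Egr1 was 7.11 and 8.60. Fosb stood at 444 CPM in the cells and 0 and 1.37 CPM in the nuclei, with 4 UMIs in all nuclei of the class, so the ratio of 1086-fold (95% counting interval 424 to 3989) rests on few counts. DESeq2 did not call Fosb, whose fitted log2 fold was 9.86 ± 0.91 (edgeR adjusted p = 0.0107), and 8.42 without nuclei 1. Without nuclei 2 the comparison is with 0 UMIs and has no fold. Atf3, a stress-induced repressor, stood at 199.7 CPM in the cells and 1.02 and 4.10 CPM in the nuclei, a log2 fold of 6.48 ± 0.60 (edgeR adjusted p = 0.0107) that was 5.70 and 7.39 without nuclei 1 and without nuclei 2.

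Feedback inhibitors in the list ran with the activators. Socs3, which curbs cytokine signalling, stood at 148 CPM in the cells and 3.21 and 3.07 CPM in the nuclei, and Dusp1, a phosphatase of MAP kinases, at 596 CPM in the cells and 29.9 and 31.1 CPM in the nuclei. Ier3, an early gene linked to survival, stood at 539 CPM in the cells and 26.8 and 56.0 CPM in the nuclei. In all 3 the cells lay above both nucleus libraries, with log2 folds of 5.49 ± 0.38 (edgeR adjusted p = 0.00761) for Socs3, 4.26 ± 0.38 (edgeR adjusted p = 0.0107) for Dusp1 and 3.73 ± 0.45 (edgeR adjusted p = 0.0174) for Ier3. Barcodes outside the members carried these transcripts too. In the cells, 17 of the 29 called genes were higher outside the members, Fos for one at 773 CPM, and 3 were at least 2-fold higher in the members, namely Ier3, Socs3 and Plk2. The enzymatic digestion, the fresh tissue and the cells moved together and cannot be told apart.

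**Figure D3:**
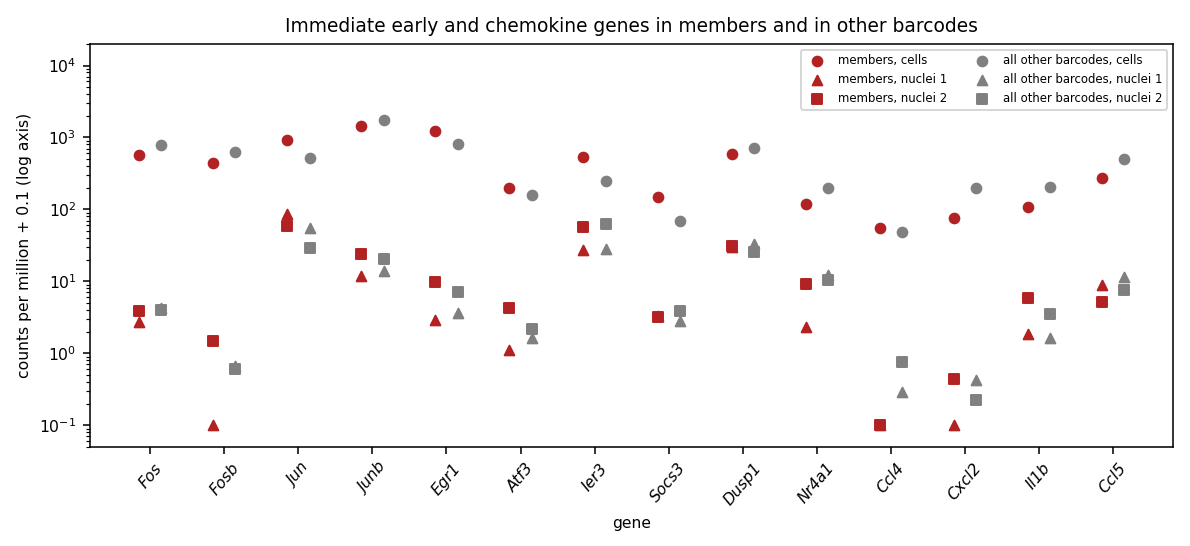
Levels of 14 immediate early and chemokine genes (x axis) in CPM plus 0.1 (y axis, log scale) in members and in all other barcodes. Each point is 1 library, and points at the bottom are at 0. Cells (circles) stand above nuclei 1 (triangles) and nuclei 2 (squares) for every gene, in members and outside them.

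The promoters of 3 of these genes are shown because each holds the letters TGACG, the core of the site bound by the cAMP response factors, here in capitals (TGACG or, read from the other strand, CGTCA). Each run gives the 250 bases before the gene's start in RefSeq on GRCm38.p6, 5′ to 3′ on the gene's strand. They lie at chr12:85473640-85473889 on the plus strand for Fos, chr7:19310046-19310295 on the minus strand for Fosb and chr1:191183334-191183583 on the minus strand for Atf3.
Fos: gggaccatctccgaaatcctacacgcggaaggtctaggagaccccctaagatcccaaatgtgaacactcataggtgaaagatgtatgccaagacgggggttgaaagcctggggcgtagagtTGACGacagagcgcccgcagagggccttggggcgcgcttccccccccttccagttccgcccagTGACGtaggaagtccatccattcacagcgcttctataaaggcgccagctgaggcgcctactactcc
Fosb: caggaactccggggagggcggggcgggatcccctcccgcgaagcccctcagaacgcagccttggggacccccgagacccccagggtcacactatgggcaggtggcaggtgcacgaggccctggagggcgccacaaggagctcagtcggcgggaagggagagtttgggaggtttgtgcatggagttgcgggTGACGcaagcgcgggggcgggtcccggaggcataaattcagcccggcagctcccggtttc
Atf3: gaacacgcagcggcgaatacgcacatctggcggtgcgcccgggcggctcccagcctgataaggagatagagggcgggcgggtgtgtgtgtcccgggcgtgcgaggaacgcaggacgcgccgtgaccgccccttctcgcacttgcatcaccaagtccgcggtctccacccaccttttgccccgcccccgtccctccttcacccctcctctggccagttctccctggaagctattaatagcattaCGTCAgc
The matches begin 129 and 66 bases before the start in Fos, 60 in Fosb and 7 in Atf3. Of the 29 called immediate early genes 26 had a promoter in the table, and 12 of these (46.2%) held TGACG on either strand, against 24.6% of the 12105 promoters of tested genes, 26.5% of the 925 of genes higher in the cells and 17.9% of all 27025. The full palindrome TGACGTCA, which contains the shorter word, was in 3 of the 26 (Dusp1, Btg2 and Plk2), or 11.5%, against 2.503% of those of tested genes, 3.24% of those of genes higher in the cells and 1.62% of all. The CArG box, the site of serum response factor, was in 1 of the 26 (Zfp36), or 3.85%, against 1.14, 1.30 and 1.40% of the same sets. These counts describe letters in a fixed window and say nothing of binding.

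Chaperones and cytokines were called in part. Of 16 heat shock chaperones 8 were higher (50%, against 7.78% of all genes) and 0 lower, with a median log2 fold of 1.76, and DESeq2 did not call 3 of the 8 (Hspa1a, Hspa1b and Hspd1). Hspa1a, an inducible Hsp70, stood at 76.3 CPM in the cells and 1.17 and 0 CPM in the nuclei, a log2 fold of 6.51 ± 0.72 (edgeR adjusted p = 0.0155) that was 5.81 without nuclei 2. Without nuclei 1 the comparison is with 0 UMIs and has no fold. Its co-chaperone Dnajb1 stood at 83.2 CPM in the cells and 5.83 and 3.76 CPM in the nuclei and had a log2 fold of 4.001 ± 0.43 (edgeR adjusted p = 0.015). Of 20 cytokines and chemokines 11 were higher (55.0%) and 0 lower. Ccl4, a chemokine, stood at 55.7 CPM in the cells and 0 and 0 CPM in the nuclei, which makes it at least 182-fold higher in the cells against a floor of 3 UMIs over both nucleus libraries. Cxcl2, a ligand that draws neutrophils, had 1 UMI in the nuclei and stood at 76.6 CPM in the cells and 0 and 0.342 CPM in the nuclei, a ratio of 749.8-fold (95% counting interval 134 to 29667). Its fitted log2 fold of 9.19 ± 0.72 was 7.80 without nuclei 1, and without nuclei 2 the comparison is with 0 UMIs. These transcripts came from few barcodes, with Ccl4 seen in 162 of 2456 members of the cells and Cxcl2 in 183. For 8 of the 11 the cells outside the members had the higher level, Cxcl2 for one at 200.02 CPM. The immune markers moved with this list, at 2485 CPM in the members of the cells and 515 and 799 CPM in those of the nuclei, and their part in the result was not tested.

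Other leading genes of the cells were of mixed kinds. The immunoglobulin gene Ighg2c stood at 379 CPM in the cells and 2.48 and 6.83 CPM in the nuclei, with 2798 UMIs in the cells of which 6 barcodes held 95.7%, so the level rests on a handful of barcodes. Its log2 fold of 6.45 ± 0.53 (edgeR adjusted p = 0.0107) was 5.89 and 7.05 without nuclei 1 and without nuclei 2. Mep1a, a metalloprotease gene, stood at 114 CPM in the cells and 0.291 and 0.342 CPM in the nuclei and was seen in 568 barcodes, a ratio of 373-fold (95% counting interval 127 to 1814) with 3 UMIs in the nuclei. Outside the members it was lower, at 20.9 CPM in the cells. It lies 14767 bp from Adgrf5, on the opposite strand. Col19a1, a collagen gene, stood at 197 CPM in the cells and 1.46 and 1.71 CPM in the nuclei, with a log2 fold of 6.92 ± 0.40 (edgeR adjusted p = 0.00468). Iqcn stood at 261 CPM in the cells and 1.31 and 1.37 CPM in the nuclei and Pde4c, a phosphodiesterase gene, at 191 CPM in the cells and 2.04 and 2.39 CPM in the nuclei. These neighbours lie in a row on 1 strand, Iqcn 2841 bp from Jund and Pde4c 6070 bp from Iqcn. Jund, a further AP-1 subunit, stood at 451 CPM in the cells and 24.8 and 59.1 CPM in the nuclei. Their log2 folds were 7.54 ± 0.42 (edgeR adjusted p = 0.00468) for Iqcn, 6.40 ± 0.39 (edgeR adjusted p = 0.00483) for Pde4c and 3.46 ± 0.48 (edgeR adjusted p = 0.0186) for Jund, and whether reads past the end of Jund were counted for its neighbours was not tested.

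**Figure D4:**
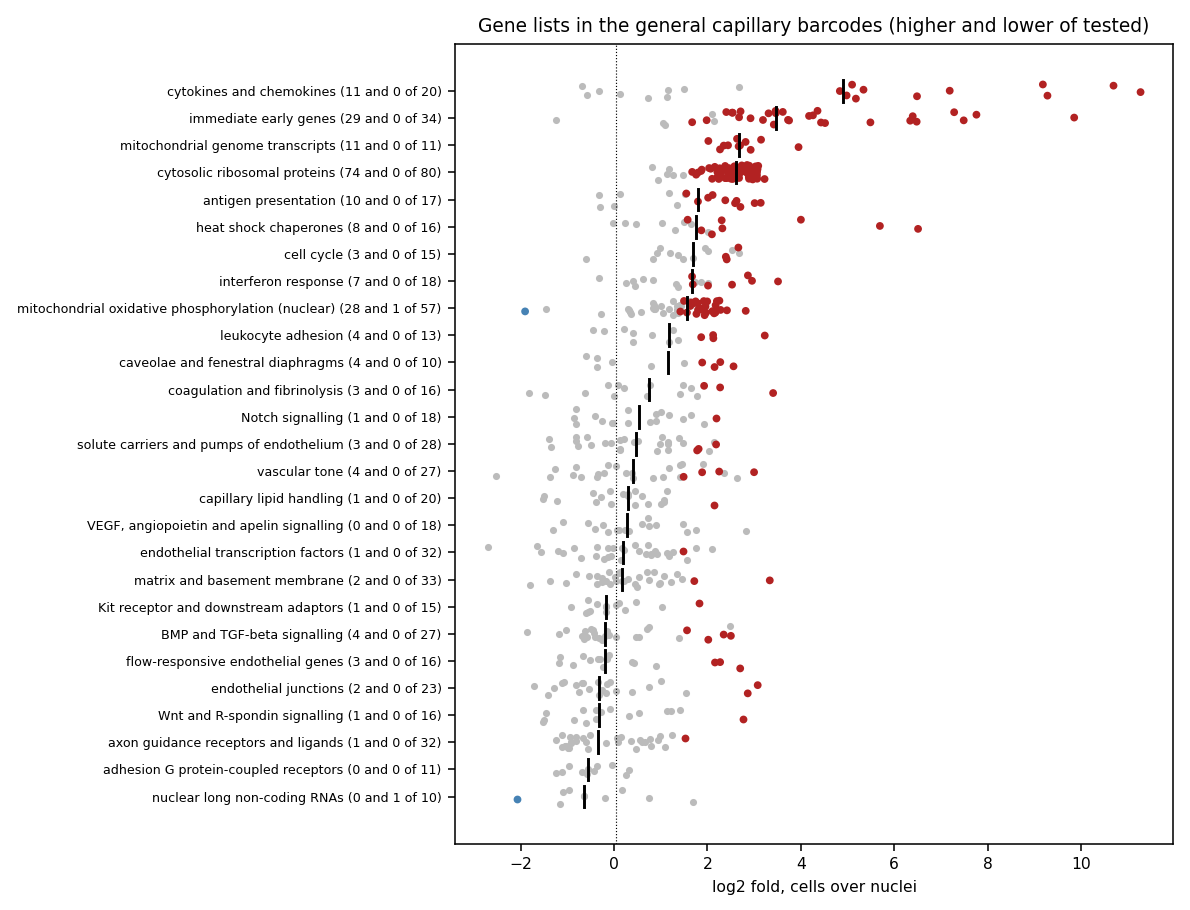
Log2 folds of cells over nuclei in the members (x axis) for the genes of each list (y axis), with called genes in red (higher) or blue (lower), others in grey, the median of a list as a black bar and the median of all genes as a dotted line. Counts beside each name give genes higher and lower of those tested. Cytokines and immediate early genes have the largest medians, at 4.91 and 3.46, and the non-coding RNAs and adhesion receptors the lowest, at -0.65 and -0.55.

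Genes of the capillary wall and of blood flow changed in part, at 40.0% of caveolar and 18.8% of flow-responsive genes higher, against 7.78% of all genes. Of 10 tested genes of caveolae and fenestral diaphragms 4 were higher in the cells: Cav1, Cav2, Cavin1 and Cavin2, the coat proteins of caveolae. Cav1 stood at 723 CPM in the cells and 177 and 138 CPM in the nuclei, a log2 fold of 2.15 ± 0.43 (edgeR adjusted p = 0.0333), and Cavin2 at 719 CPM in the cells and 147 and 143 CPM in the nuclei, a log2 fold of 2.27 ± 0.39 (edgeR adjusted p = 0.0242). Of 16 flow-responsive genes 3 were higher: the transcription factors Klf2 and Klf4 and Thbd, the anticoagulant thrombomodulin. Klf2 stood at 413 CPM in the cells and 83.7 and 98.4 CPM in the nuclei, Klf4 at 323 CPM in the cells and 51.6 and 44.7 CPM in the nuclei and Thbd at 586 CPM in the cells and 141 and 92.9 CPM in the nuclei. All 3 lay above both nucleus libraries, with log2 folds of 2.16 ± 0.35 (edgeR adjusted p = 0.0218), 2.70 ± 0.37 (edgeR adjusted p = 0.0186) and 2.27 ± 0.46 (edgeR adjusted p = 0.0339). The median of the list was -0.20, so most genes of the list lay below these. RLE scaling also called 3 higher and 0 lower, against 2414 higher and 1266 lower of all 16230 genes.

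Against 7.78% of all genes, 8.70% of junction, 30.8% of leukocyte adhesion and 18.8% of coagulation genes were higher in the cells, so the junction share was near that of all genes. Of 23 junction genes 2 were higher, Cldn5 and Gja4, and none lower (RLE scaling called 3 higher and 2 lower). Cldn5, the claudin of endothelial tight junctions, stood at 767 CPM in the cells and 63.1 and 152 CPM in the nuclei, a log2 fold of 2.86 ± 0.51 (edgeR adjusted p = 0.0252). Gja4, the connexin 37 of gap junctions, stood at 87.8 CPM in the cells and 4.66 and 17.8 CPM in the nuclei, a log2 fold of 3.08 ± 0.60 (edgeR adjusted p = 0.0318) that was 2.40 and 4.03 without nuclei 1 and without nuclei 2. Cdh5, the cadherin of endothelial junctions, stood at 723 CPM in the cells and 363 and 342 CPM in the nuclei, and its log2 fold of 1.003 ± 0.42 (edgeR adjusted p = 0.165) missed the threshold. Of 13 leukocyte adhesion genes 4 were higher (RLE scaling called 7 higher and 0 lower), among them Icam1, the ligand of leukocyte integrins, at 171 CPM in the cells and 31.0 and 47.5 CPM in the nuclei, and Icam2 at 197 CPM in the cells and 41.5 and 47.5 CPM in the nuclei. Their log2 folds were 2.12 ± 0.35 (edgeR adjusted p = 0.0218) and 2.13 ± 0.33 (edgeR adjusted p = 0.0196). Of 16 coagulation and fibrinolysis genes 3 were higher, Thbd and S100a10 among them (RLE scaling called 6 higher and 1 lower). The RLE counts stand against 2414 higher and 1266 lower of all 16230 genes with that scaling.

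Of the signalling lists, BMP and TGF-beta had 14.8% of genes higher, against 7.78% of all genes, and Notch (5.56%), Wnt (6.25%) and Kit (6.67%) had shares near it. None of the 18 genes of VEGF, angiopoietin and apelin signalling was called (RLE scaling called 2 higher and 1 lower). Kdr, the main VEGF receptor, stood at 330.1 CPM in the cells and 68.2 and 174 CPM in the nuclei, and its log2 fold of 1.48 ± 0.50 (edgeR adjusted p = 0.109) missed the threshold. Of 27 genes of BMP and TGF-beta signalling 4 were higher, namely the target genes Id1, Id2 and Id3 and the ligand Tgfb1 (RLE scaling called 6 higher and 0 lower). Id3 stood at 249 CPM in the cells and 46.2 and 49.9 CPM in the nuclei, a log2 fold of 2.35 ± 0.34 (edgeR adjusted p = 0.0186). Notch signalling gave 1 of 18, Notch3, and Wnt signalling 1 of 16, the transcription factor Lef1 at 123 CPM in the cells and 16.2 and 19.5 CPM in the nuclei (RLE scaling called 5 higher and 0 lower for Notch, and 2 higher and 3 lower for Wnt). Of 32 endothelial transcription factors Hif1a, the hypoxia factor, was the 1 called, at 50.03 CPM in the cells and 16.6 and 18.8 CPM in the nuclei (RLE scaling called 4 higher and 4 lower). Kit and its adaptors gave 1 of 15, the signal transducer Stat5a. Axon guidance genes, to which Sema3c belongs by family, gave 1 of 32, the ephrin Efnb1 (RLE scaling called 2 higher and 0 lower), and adhesion G protein-coupled receptors 0 of 11. DESeq2 did not call Id1, Hif1a or Efnb1. The edgeR fit of all 16230 genes had 5052 at an unadjusted p under 0.05. With RLE scaling 2414 of the 16230 genes were higher and 1266 lower, the background of the RLE counts given here.

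Of vessel tone genes 14.8% were higher, of solute carriers 10.7%, of matrix genes 6.06% and of lipid handling genes 5.000%, against 7.78% of all genes. With RLE scaling the background was 2414 higher and 1266 lower of all 16230 genes. Of 27 vascular tone genes 4 were higher (RLE scaling called 8 higher and 1 lower). Gucy1a1 and Gucy1b1, the subunits of the nitric oxide receptor, were both above their nucleus levels, Gucy1a1 at 128, 25.5 and 44.4 CPM and Gucy1b1 at 99.0, 17.5 and 23.9 CPM. Their log2 folds were 1.89 ± 0.37 (edgeR adjusted p = 0.0319) and 2.25 ± 0.33 (edgeR adjusted p = 0.0186), and Ramp3 and Pde3b (not called by DESeq2) were the others. Of 20 genes of capillary lipid handling 1 was higher, the endothelial lipase Lipg at 23.9 CPM in the cells and 4.66 and 6.15 CPM in the nuclei (RLE scaling called 1 higher and 2 lower), which DESeq2 did not call and which also missed the threshold in members with 0 excluded genes. Of 28 solute carriers and pumps 3 were higher (RLE scaling called 5 higher and 2 lower), with the water channel Aqp1 at 476 CPM in the cells and 88.6 and 119 CPM in the nuclei and a log2 fold of 2.18 ± 0.37 (edgeR adjusted p = 0.0225). Of 33 matrix genes 2 were higher, Fn1 and Adamts1 (RLE scaling called 5 higher and 2 lower). Adamts1, a secreted metalloprotease, stood at 221 CPM in the cells and 14.6 and 30.1 CPM in the nuclei, a log2 fold of 3.33 ± 0.42 (edgeR adjusted p = 0.0182), and outside the members at 65.6 CPM in the cells.

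Immune recognition genes were higher in the cells in part. Of 17 antigen presentation genes 10 were higher (58.8%, against 7.78% of all genes) and 0 lower, with a median log2 fold of 1.80. B2m, the light chain of MHC class I, stood at 1212 CPM in the cells and 147 and 148 CPM in the nuclei, and Cd74, the chaperone of MHC class II, at 1802 CPM in the cells and 157 and 252 CPM in the nuclei. The log2 folds were 3.01 ± 0.42 (edgeR adjusted p = 0.0186) and 3.14 ± 0.46 (edgeR adjusted p = 0.019). In the cells 5 of the 10 stood higher outside the members, and the immune markers of the members ran the same way, at 2485, 515 and 799 CPM, and their part in the result was not tested. Of 18 interferon response genes 7 were higher (38.9%) and 0 lower, with a median of 1.68. Ifitm3, an antiviral membrane protein, stood at 808 CPM in the cells and 69.7 and 69.0 CPM in the nuclei, a log2 fold of 3.51 ± 0.40 (edgeR adjusted p = 0.0156). Iigp1 stood at 846 CPM in the cells and 119.7 and 106 CPM in the nuclei, a log2 fold of 2.87 ± 0.41 (edgeR adjusted p = 0.0186), and at 192, 34.1 and 32.4 CPM outside the members, so it was higher in the members in each library.

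Transcripts of ribosomal proteins and of the mitochondrial genome were mostly higher in the cells, and nuclear-encoded respiratory genes in part. Of all genes 7.78% were higher and 1.30% lower. All 11 mitochondrial genome genes tested were higher (100%), with a median log2 fold of 2.67. So were 74 of 80 ribosomal protein genes (92.5%), with a median of 2.60. Of 57 nuclear-encoded respiratory chain genes 28 were called higher (49.1%) and 1 lower (1.75%), Uqcrc2, at 8.54 CPM in the cells and 29.4 and 33.8 CPM in the nuclei. In the cells all 74 ribosomal and all 28 respiratory genes stood higher outside the members, as did 4 of the 11. Of 15 cell cycle genes 3 were higher (20%), Mki67, Pcna and Hmgb2. RLE scaling called 7 of these higher and 0 lower, against 2414 higher and 1266 lower of all 16230 genes. Mki67 missed the threshold in members with at least 6 or at least 7 rule genes and after thinning to 1500 UMIs. Of 10 nuclear long non-coding RNAs 0 were higher and 1 lower (10%), Snhg11. Malat1, the abundant RNA of nuclear speckles, stood at 13478 CPM in the cells and 20108 and 21520.5 CPM in the nuclei, a log2 fold of -0.65 ± 0.92 (edgeR adjusted p = 0.638).

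Of the named genes lower in the cells Cyp2f2 had the largest fold. Cyp2f2, a cytochrome P450 of club cells, stood at 19.5 CPM in the cells and 368 and 556 CPM in the nuclei, a log2 fold of -4.57 ± 0.53 (edgeR adjusted p = 0.0163). Cbr2, a carbonyl reductase of the same cells, stood at 73.3 CPM in the cells and 651 and 715 CPM in the nuclei, a log2 fold of -3.24 ± 0.51 (edgeR adjusted p = 0.0196). Outside the members these stood at 21.3, 422 and 930.4 CPM for Cyp2f2 and 67.9, 783 and 1000.2 CPM for Cbr2, which is higher than in the members in both nucleus libraries. Of the other 10 leading genes, Dnah5 and Dnah12 encode dynein heavy chains of cilia, Dnah5 at 6.91 CPM in the cells and 33.7 and 88.8 CPM in the nuclei and 11.9, 51.7 and 195 CPM outside. The log2 fold of Dnah5 was -3.11 ± 0.61 (edgeR adjusted p = 0.0323), and -3.58 and -2.48 without nuclei 1 and without nuclei 2. Bmpr1b, a BMP receptor, stood at 4.61 CPM in the cells and 34.0 and 103 CPM in the nuclei and 4.76, 101 and 369 CPM outside. Its log2 fold was -3.84 ± 0.71 (edgeR adjusted p = 0.0278), and -4.37 and -3.08 without nuclei 1 and without nuclei 2. Grip1, Tmem212, Spag17, Cdhr3, Rgs22, Cfap54 and Lrrc36 completed the list, with log2 folds between -3.57 and -2.81. Without nuclei 1 and without nuclei 2, the folds were -3.86 and -2.52 for Spag17, -3.73 and -2.30 for Rgs22, -3.58 and -2.28 for Dnah12 and -3.49 and -2.33 for Cfap54. All 12 had a higher level outside the members in both nucleus libraries. The summed epithelial markers of the members moved with them, at 6067 CPM in the cells and 19628 and 23178 CPM in the nuclei. Scgb1a1 made up most of that sum in the nuclei, at 1378 CPM in the cells and 16280 and 18460 CPM in the nuclei. Sftpc and Hopx were higher in the cells than in both nucleus libraries, and Ager lay between these libraries. The other markers of the list were higher in both nucleus libraries. The part of epithelial transcripts in the result was not tested.

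The cells over nuclei fold was then compared between the members and aerocytes (496, 197 and 107 barcodes), to ask where the capillary types differed in how preparation changed a gene. Of 14347 genes tested, 28 had a larger fold in the members (0.195%) and 35 a smaller one (0.244%) by the interaction of class and preparation (edgeR, with library as a block and 1 residual degree of freedom). Abcb1a, the drug efflux pump P-glycoprotein, stood at 98.3, 93.6 and 83.0 CPM in the general capillary barcodes and at 43.3, 3.17 and 0 CPM in aerocytes. It was level across the libraries in the members and near 0 in the aerocyte nuclei, a difference of -4.04 ± 0.69 (edgeR adjusted p = 0.000431) in log2 fold, and of -3.33 without nuclei 2. Without nuclei 1 the comparison is with 0 UMIs in aerocytes and has no fold. Clu, the chaperone clusterin, stood at 83.1, 23.6 and 39.3 CPM in the general capillary barcodes and 392, 16.9 and 33.0 CPM in aerocytes, a difference of -2.57 ± 0.41 (edgeR adjusted p = 0.000185). Mctp1, a calcium-binding membrane protein, stood at 338, 1238 and 652 CPM in the general capillary barcodes and 117, 77.1 and 33.0 CPM in aerocytes. It was lower in the cells than in the nuclei of the members and higher in the cells of the aerocytes, a difference of -2.51 ± 0.36 (edgeR adjusted p = 5.54e-05). Myrip, Camk4, Epb41, Lepr and Rundc3b were the other leading genes with smaller folds in the members.

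Larger folds in the members were led by Grip2, at 16.7, 1.31 and 0.342 CPM in the general capillary barcodes and 21.0, 72.9 and 21.0 CPM in aerocytes, a difference of 5.49 ± 0.66 (edgeR adjusted p = 6.09e-07), and of 4.46 and 5.25 without nuclei 1 and without nuclei 2. Egflam, a matrix protein also called pikachurin, stood at 80.3, 16.2 and 36.9 CPM in the general capillary barcodes and 303, 439 and 501 CPM in aerocytes, a difference of 2.42 ± 0.36 (edgeR adjusted p = 5.59e-05), and of 1.98 and 3.02 without nuclei 1 and without nuclei 2. Sema5a, a guidance factor, stood at 40.7, 71.9 and 45.8 CPM in the general capillary barcodes and 90.1, 839 and 435 CPM in aerocytes, a difference of 2.32 ± 0.35 (edgeR adjusted p = 6.96e-05). In aerocytes Egflam and Sema5a were higher in both nucleus libraries than in the cells, while Grip2 was higher in nuclei 1 and level with the cells in nuclei 2. The Grip2 levels in the nuclei of the members rest on few UMIs. Kcnb2, Shisa9, Slc5a12, Scrn1 and Pde8b followed. Shisa9, Slc5a12 and Scrn1 were also low in the members, Slc5a12 for one at 3.52, 2.04 and 1.37 CPM. From the lists, Tek stood at 605, 1495 and 1007 CPM in the general capillary barcodes and 73.4, 32.7 and 57.0 CPM in aerocytes, a difference of -1.86 ± 0.40 (edgeR adjusted p = 0.00905), and of -0.96 and -2.26 without nuclei 1 and without nuclei 2. Entpd1 had a difference of -1.86 ± 0.40 (edgeR adjusted p = 0.0082), and of -0.87 and -2.34 without nuclei 1 and without nuclei 2, and Hspb1, a small heat shock protein, one of -2.30 ± 0.49 (edgeR adjusted p = 0.00816). Of 24 genes of the comparison of cells and nuclei followed here, Fos, Junb and Cldn5 among them, 0 passed the threshold, with edgeR adjusted p-values between 0.09 and 1. In aerocytes Fos stood at 537 CPM in the cells and 1.06 and 0 CPM in the nuclei, so without nuclei 1 its comparison is with 0 UMIs. The difference was -1.72 ± 1.11 (edgeR adjusted p = 1.00) for Fos, and -0.75 without nuclei 2, so a difference of more than 2-fold lies within its error. It was 0.36 ± 0.41 (edgeR adjusted p = 1.00) for Junb, -0.81 ± 0.33 (edgeR adjusted p = 0.594) for Cldn5 and -0.47 ± 0.33 (edgeR adjusted p = 1.00) for B2m.

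**Figure D5:**
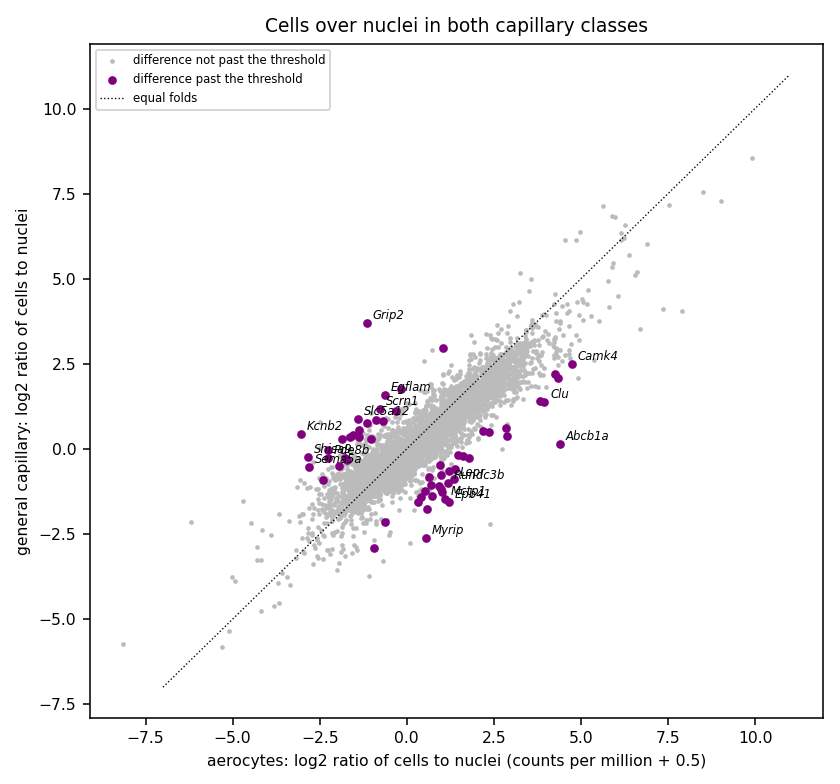
Log2 ratio of cells to nuclei in the members (y axis) against that in aerocytes (x axis), from levels in CPM plus 0.5, 1 point a gene with at least 50 CPM in 1 class and library. Purple points differed between the classes past the threshold, and the dotted line marks equal folds. Abcb1a and Clu lie below the line, and Grip2 and Kcnb2 above it.

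Large-vessel endothelium (698, 392 and 264 barcodes) held the general capillary genes as well, since 78.9, 67.3 and 37.5% of its barcodes had at least 5 of the 10 rule genes and were left out of the members for their excluded genes. Of 14806 genes tested, 117 had a larger cells over nuclei fold in the members than in this class (0.790%) and 47 a smaller one (0.317%). The arterial markers of this class summed to 617 CPM in the cells and 1172 and 1449.6 CPM in the nuclei. Its venous markers summed to 3231 CPM in the cells and 3265 and 2550.4 CPM in the nuclei. The balance of these markers thus differed between the libraries, and its part in the differences of fold was not tested. The 7 aerocyte markers summed in this class to 512 CPM in the cells and 119 and 118 CPM in the nuclei. Their part was not tested either. Glp1r, the receptor of glucagon-like peptide 1, stood at 27.4, 113 and 141 CPM in the general capillary barcodes and 20.5, 28.001 and 26.0 CPM in large-vessel endothelium. Its fold was smaller in the members, by -1.76 ± 0.36 (edgeR adjusted p = 0.000221) in log2. Cmklr1, the chemerin receptor, stood at 21.6, 14.6 and 18.8 CPM in the general capillary barcodes and 17.2, 71.8 and 107 CPM in large-vessel endothelium, and its fold was larger in the members, by 2.70 ± 0.36 (edgeR adjusted p = 1.35e-10). Cdh13, a cadherin that binds adiponectin, stood at 43.5, 57.1 and 79.6 CPM in the general capillary barcodes and 149, 666 and 733 CPM in large-vessel endothelium, a difference of 1.61 ± 0.22 (edgeR adjusted p = 1.35e-10). Adgrg6, an adhesion receptor, had a difference of 1.96 ± 0.20 (edgeR adjusted p = 1.22e-18). When barcodes with 5 or more of 30 other-lineage genes were left out of both classes, 23 larger and 4 smaller folds were called.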

How the data were processed

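Droplet RNA sequencing of mouse lung gave 1 library of cells and 2 of nuclei. The authors deposited tables of raw UMI counts per gene and barcode, aligned with STAR 2.5.3a to mm10 per the submitters' processing notes. The counting program, the annotation, the use of strand and the treatment of intronic reads were not given in the sources used here. The members and gene lists were chosen with earlier results of these data known.

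Tables were joined on 21507 shared genes, of which 21338 had 1 match in the GENCODE vM21 annotation of mm10. Counts were summed over the members of each library, genes were kept by filterByExpr, and cells were set against nuclei with edgeR 4.0.16 (R 4.3.3, TMM, quasi-likelihood, 1 residual degree of freedom, calls at an adjusted p under 0.05). Counts of list genes cover the genes that passed this filter and leave out the 17 rule and excluded genes. Interaction fits used 6 sums (class by library) with library as a block. Aerocytes were barcodes with at least 3 of 7 aerocyte genes, fewer than 5 rule genes and at most 1 of Vwf, Slc6a2 and Gja5. Large-vessel endothelium were other barcodes with at least 3 of 6 pan-endothelial and 2 of 6 large-vessel genes, and alveolar macrophages had at least 4 of 9 macrophage genes. An error after ± is the standard error of a log2 fold, from edgeR's F.

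Named genes were the 12 largest folds each way among calls with at least 50 CPM in 1 group, the 10 largest smallest ratios between classes, 8 interactions each way, and called list genes, without ribosomal, mitochondrial and clone-like symbols. In the ratios between classes the lower class was set to at least 3 counts. A pseudocount of 0.5 CPM was used for the plotted folds of members and aerocytes, and for interaction differences with a nucleus library left out. Where a group held 0 counts, a fold was bounded by 3 counts. Intervals are at 95% and cover counting error only. No doublet caller was run. Some items are not reported here. On simulated counts for the 16230 genes, the comparison of cells and nuclei recovered 18, 90, 98 and 100% of 50 genes changed 2-, 4-, 8- and 16-fold, with 0 false calls among 153. The simulated counts were drawn with a smaller dispersion than the common dispersion of 0.0911 fitted to the real counts. Recovery and false calls in the simulation therefore do not measure those of the real comparison. Alternatives were DESeq2 1.42.0, RLE scaling, filters, member rules, thinning to 1500 UMIs and each nucleus library left out. The limit of 7 rule genes, the limit of 5 other-lineage genes, the split by Vwf and the promoters shown were chosen after seeing the data. Python 3.11.15 was used with numpy 2.4.6, scipy 1.17.1 and matplotlib 3.10.9.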

Additional observations from a re-analysis of the deposited data

Results flagged for a closer look

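These genes had a cells over nuclei effect that differed between the general capillary barcodes and another endothelial class by the edgeR interaction test. Values are differences in log2 fold, members minus the other class. Against aerocytes the fold was smaller in the members, with differences of -4.04 for Abcb1a, -3.15 for Myrip, -2.76 for Camk4, -2.70 for Epb41, -2.57 for Clu, -2.51 for Mctp1, -2.48 for Lepr and -2.46 for Rundc3b. It was larger in the members, with differences of 5.49 for Grip2, 3.69 for Kcnb2, 2.90 for Shisa9, 2.53 for Slc5a12, 2.42 for Egflam, 2.32 for Sema5a, 2.28 for Scrn1 and 2.24 for Pde8b. Abcb1a had a difference of -3.33 without nuclei 2. Without nuclei 1 its comparison is with 0 UMIs in aerocytes and has no fold. The values without nuclei 1 and without nuclei 2 were -1.22 and -3.15 for Camk4, -1.04 and -3.56 for Epb41, -0.65 and -3.32 for Lepr, and -1.27 and -2.89 for Rundc3b. They were 1.38 and 3.33 for Pde8b, 1.28 and 2.75 for Scrn1, 1.98 and 3.02 for Egflam, 1.15 and 3.98 for Shisa9, and 4.46 and 5.25 for Grip2. When barcodes with 5 or more of 30 other-lineage genes were left out, Camk4, Lepr, Rundc3b, Scrn1 and Kcnb2 missed the threshold.

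Against large-vessel endothelium the smaller folds in the members gave -2.26 for Lmntd1, -2.20 for Ntrk2, -2.14 for Ighg2b, -1.76 for Glp1r, -1.55 for Edil3, -1.55 for Vps28, -1.52 for Gnao1 and -1.51 for Tmeff2. The larger folds gave 5.35 for Ighg2c, 3.21 for Olfm2, 2.93 for Sgcz, 2.85 for Esr2, 2.70 for Cmklr1, 2.45 for Fads2, 2.30 for Slc45a4 and 2.17 for Ighm. The balance of arterial and venous markers in large-vessel endothelium differed between the libraries, and its part in these values was not tested. Its aerocyte markers summed to 512 CPM in the cells and 119 and 118 CPM in the nuclei. Lmntd1, Edil3 and Tmeff2 were among the 10 leading genes of aerocytes over members, and the part of aerocyte transcripts was not tested either. The values without nuclei 1 and without nuclei 2 were -1.16 and -2.50 for Ntrk2, -0.73 and -1.72 for Gnao1, 3.06 and 1.60 for Fads2, and 3.77 and 1.68 for Sgcz. Ntrk2, Vps28, Gnao1, Tmeff2, Fads2, Sgcz and the immunoglobulin gene Ighg2b missed the threshold when barcodes with 5 or more of the 30 genes were left out. Ighm, like Ighg2c, was held by few barcodes, with 6 of them holding 67.1% of its 6797 UMIs in the members of the cells.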

How the results depend on the processing

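No paired analysis was possible because the labels of the cells carry no replicate number, so the groups share fewer than 2 numbers. Against 1263 genes higher in the cells, 2414 were higher with RLE factors, 2746 with no filter on low counts, 2373 in members with 0 excluded genes and 2101 after thinning. Against 211 lower genes there were 1266 with RLE factors, 429 with DESeq2, 992 with no filter, 403 with at least 6 rule genes, 1148 with 0 excluded genes and 958 after thinning. In alternatives chosen after seeing the data there were 407 lower with at least 7 rule genes and 593 in members with under 5 of 30 other-lineage genes. The cause of these changes was not tested. The calls were all shared with RLE factors, 77.1% were shared with DESeq2 and 56.0% with a filter of 10 CPM in both groups. That filter tested only 8516 of the 16230 genes, and DESeq2 gave no adjusted p-value for 1888. Calls among such genes could not be shared. With 1 nucleus library left out there is no test. Genes at least 4-fold higher in the cells then numbered 918 to 1114 (940 with all libraries) and lower ones 318 to 353 (299). All 234 called genes followed kept their sign, and 28 moved by more than 1.5-fold. DESeq2 did not call 21 of 232. Beyond those named above, these were Egr3, Ccn1, Selp, Il6, Tap1, Ifi27l2a, Abcb1b, Ndufb5, Cox6a1, Cox6b1, Atp5b and Atp5g3. Ifi27l2a and Abcb1b also missed the threshold after thinning, with at least 7 rule genes and with under 5 other-lineage genes. Called interactions with large-vessel endothelium numbered 23 larger and 4 smaller with under 5 other-lineage genes, against 117 and 47. Under that setting the difference for Robo2 turned to -0.23 against aerocytes and that for Ighg2b to 2.85 against large-vessel endothelium, both opposite in sign to the values with all barcodes and short of the threshold. The cause was not tested. Leaving out barcodes with at least 2 other-lineage genes kept 18, 1 and 0 members and could not be fitted. The share of members was 26.5, 31.1 and 18.4% with at least 4 rule genes, 16.5, 21.6 and 9.22% with at least 6, 10.1, 12.7 and 8.04% with 0 excluded genes, and 18.0, 23.2 and 11.9% after thinning. With 2 nucleus libraries, differences near 2-fold were mostly missed in simulated counts.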

Other observations

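Genes at least 2-fold higher in the members than in all other barcodes, in each of the 3 libraries, were set aside after the data were seen. Of 432 tested, 22 were higher in the cells (5.09%, against 7.78% of all genes) and 11 lower (2.55%, against 1.30%). Their median log2 fold was -0.54, against 0.05 for all genes. Among the lower genes was Plpp1, a lipid phosphatase of the plasma membrane, at 202, 841 and 932 CPM, a log2 fold of -2.15 ± 0.50 (edgeR adjusted p = 0.0471). Glp1r stood at 27.4, 113 and 141 CPM, a log2 fold of -2.23 ± 0.38 (edgeR adjusted p = 0.024). Both nucleus libraries lay above the cells for these genes. Among the higher genes were Igtp, an interferon-induced GTPase, at 146, 42.0 and 27.0 CPM, with a log2 fold of 2.01 ± 0.43 (edgeR adjusted p = 0.0374), Fmo4, a flavin monooxygenase, at 50.03, 11.4 and 11.96 CPM, with 2.07 ± 0.36 (edgeR adjusted p = 0.024), and Slco1c1, a thyroid hormone transporter, at 61.5, 13.6 and 10.6 CPM, with 2.28 ± 0.38 (edgeR adjusted p = 0.0228).

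Some called genes lie on or beside other genes. Gm15581, of the same set, overlaps Cav1 on the opposite strand and stood at 112, 683 and 625 CPM, a log2 fold of -2.58 ± 0.51 (edgeR adjusted p = 0.0319), while Cav1 was higher in the cells. Patl2, also of the set, overlaps B2m on the opposite strand and stood at 363, 78.7 and 75.1 CPM, a log2 fold of 2.20 ± 0.36 (edgeR adjusted p = 0.0218). The use of strand in the counting is not given in the sources used here, so reads of overlapping genes may not be told apart. Milr1, which encodes an inhibitory immunoreceptor and is not of the set, overlaps Polg2 on the opposite strand and stood at 172, 3.79 and 4.78 CPM, a log2 fold of 5.31 ± 0.37 (edgeR adjusted p = 0.00761). Rtn2, also outside the set, lies 6536 bp from Fosb on the opposite strand and stood at 67.6, 1.60 and 1.37 CPM, a log2 fold of 5.40 ± 0.43 (edgeR adjusted p = 0.0107). These genes were chosen after their values were seen.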
